A study of Chlamydomonas reinhardtii with 20 samples.

Results

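The comparison described here sets the heme oxygenase mutant hmox1 of the green alga Chlamydomonas reinhardtii beside the wild type 4A+, both grown without biliverdin (BV) and both sampled after 4 h of white light. Its members are the 2 libraries labelled hmox1 and the 2 labelled 4A+ that received no BV, 4 of the 20 RNA-seq libraries of the series, chosen by their labels. Tests covered 13871 of the 17737 gene IDs, those that reached 1 RPKM in 2 or more libraries. RPKM is the number of reads on a gene scaled to the gene's length and to the library's total. Cells were inoculated in acetate medium with 0.5% methanol, grown in darkness at 22 C and then lit at 150 µmol photons per square metre and second. The groups follow the light label of each sample, since the treatment protocol names a shorter exposure alone. The other libraries came from 4A+ and hmox1 with 0.1 mM BV after 4 h of light, and from the complemented hmox1 lines ho1C1 and ho1C2 without BV, which were harvested after 0.5 h or 4 h of light or before it. Each group holds 2 libraries, labelled biological replicates. Nothing more is said of their origin, and the p-values therefore cover only the variation between these samples, which may be technical. The labels do not say how the mutant was made, and neither 4A+ nor hmox1 has a dark library among the samples used here.

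Heme oxygenase opens the ring of heme and yields biliverdin, a linear tetrapyrrole or bilin. In plants and algae this reaction takes place in the chloroplast, where heme and chlorophyll are made from a common precursor, protoporphyrin IX. In land plants and cyanobacteria bilins serve as the light-absorbing groups of phytochromes and, in cyanobacteria and red algae, of phycobiliproteins. The series' title places the work in the role of bilins in acclimation of this alga to light. The files pair no gene ID with a name, so genes are given by ID and by their levels. Transcripts of carbon concentration, photosynthesis and stress as named classes are not analysed here, and neither is the mutated gene, so the strain labels were not checked against it. Protein and promoter sequences are not analysed here either.

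The 4 libraries differed in evenness as well as in strain. The pair of hmox1 libraries differed from each other by a median of 0.155 on the log2(RPKM + 1) scale, and the 4A+ pair by 0.0748. In hmox1 39 genes and in 4A+ 7 genes were at least 2-fold apart between the 2 libraries. Relative depth, read from the steps between low values, was 1.01 and 0.66 in 4A+ and 0.76 and 0.58 in hmox1, and the number of reads is unknown. The 100 most abundant genes of a library took 55.1% and 53.8% of its summed RPKM in 4A+, against 49.9% and 49.4% in hmox1. Reads of near-identical or overlapping genes could be split or shared by the authors' counting, and the strand setting of that counting is not stated in the labels or the file.

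Few transcripts were much lower in hmox1 and many were moderately higher. At a Benjamini-Hochberg adjusted p under 0.05 in limma, 7418 genes (53.5% of those tested) were higher in hmox1 and 1632 (11.8%) lower. At least 2-fold on the log2(RPKM + 1) scale, 978 genes (7.05%) were higher and 111 (0.8%) lower. The 4 libraries did not overlap between strains for any of these 1089 genes, and 77.4% of all genes tested did not overlap. In 7 of the 1089 genes the hmox1 libraries were themselves at least 2-fold apart, and in 1 the 4A+ libraries were. The median difference over all genes tested was 0.24 on the log2 scale. With libraries scaled by median ratios that median became 0.00, 4230 genes were higher and 4187 lower, and 526 and 240 were past 2-fold. A share of the sequenced RNA was measured, so less of a transcript in each cell and a larger total of other transcripts cannot be told apart.

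**Figure D1:**
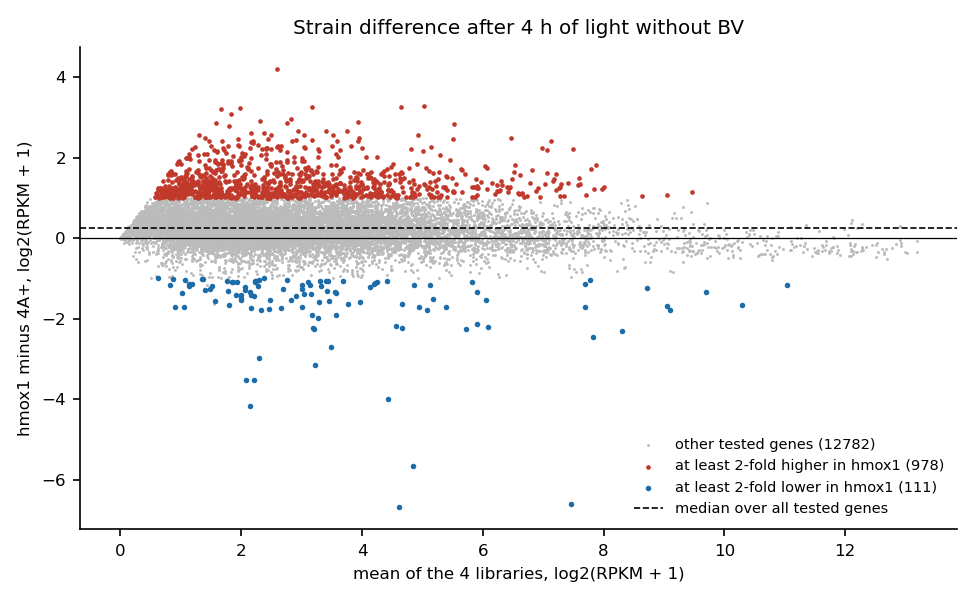
Difference between hmox1 and 4A+ without BV after 4 h of light (vertical axis, log2(RPKM + 1)) against the mean of the 4 libraries (horizontal axis, same scale), 1 point for each of 13871 genes. Red points are the 978 genes at least 2-fold higher, blue points the 111 at least 2-fold lower, and the dashed line is the median of 0.24; the deepest falls reach below -6.

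The direction of the difference changed with the abundance of the transcript. Among the 139 genes at 1000 RPKM or more on average over the 20 libraries, 90 (64.7%) were lower in hmox1 and 14 (10.1%) higher, with a median difference of -0.21. Among the 7964 genes between 1 and 10 RPKM, 712 (8.94%) were lower and 4236 (53.2%) higher, with a median of 0.26. The class from 100 to 1000 RPKM lay between these, with 30.5% of 616 genes lower and 43.2% higher. Together the 139 most abundant genes made up 61.2% of the mean summed RPKM of the genes tested in 4A+ and 55.9% in hmox1. With median-ratio scaling the medians moved to -0.55 in the most abundant class, -0.26 from 100 to 1000 RPKM and 0.02 between 1 and 10 RPKM. That scaling divides each library by a single factor, so the order of these 3 classes could hardly change and its agreement adds nothing. In counts, median-ratio scaling gave 2438 genes higher and 2029 lower between 1 and 10 RPKM and 1 higher and 127 lower at 1000 RPKM or more. From 100 to 1000 RPKM the majority turned, from 266 higher and 188 lower to 128 and 378. From 10 to 100 RPKM the median changed sign, from 0.26 to -0.07, and from 100 to 1000 RPKM from 0.08 to -0.26.

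**Figure D2:**
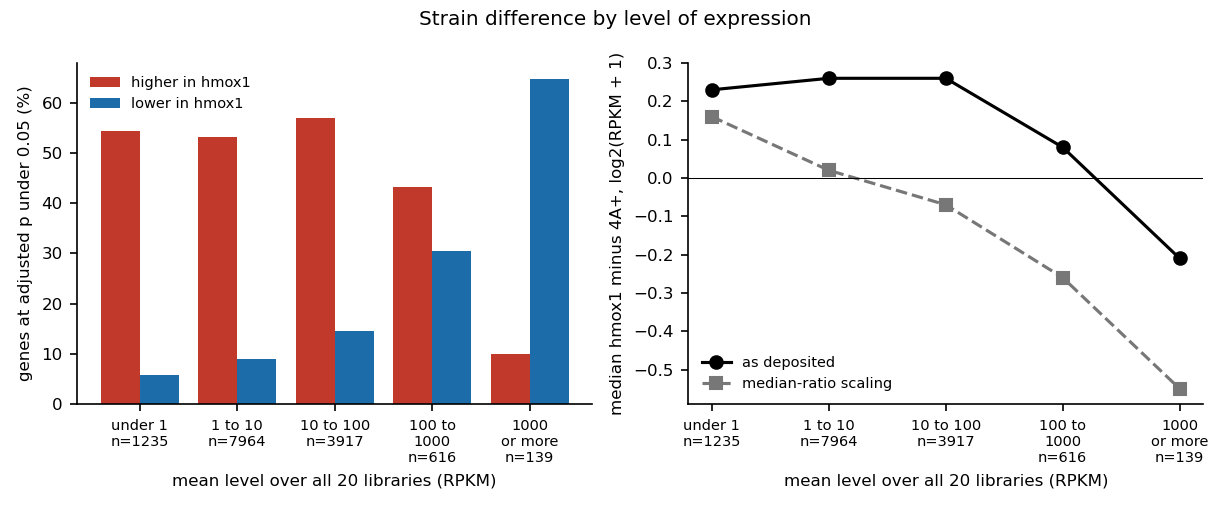
Left, share of genes higher (red) and lower (blue) in hmox1 at an adjusted p under 0.05 in 5 classes of mean level over all 20 libraries. Right, median difference between hmox1 and 4A+ in each class, on the log2(RPKM + 1) scale, for the values as deposited (black) and after median-ratio scaling (grey). The class of 1000 RPKM or more stands at 64.7% lower and a median of -0.21.

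The genes described next are the largest rises and falls among 641 higher (4.62%) and 90 lower genes (0.649%) that averaged at least 5 RPKM in the higher strain, with no overlap between libraries. The deepest falls took transcripts that were well expressed in 4A+ to a few RPKM or to near 0. Cre03.g162800 stood at 241 and 251 RPKM in the 4A+ libraries and at 1.49 and 1.32 in the hmox1 libraries (difference of -6.68 on the log2 scale, SE 0.10, limma adjusted p = 1.45e-18). Each SE and p-value, here and below, pools the spread over all groups, although the hmox1 pair without BV was the widest apart. They therefore tend to be too small for this comparison. In limma with the 4 libraries alone the adjusted p of Cre03.g162800 was 8.39e-08. With BV this gene was low in both strains, at 1.15 and 0.75 RPKM in 4A+ and 0.11 and 0.02 in hmox1. In the complemented lines it stayed under 0.3 RPKM, except in ho1C1 at 4 h, with 4.15 and 3.67. Its high level was thus measured in the 4A+ libraries without BV and in no other group.

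Cre04.g223100 had one of the 5 largest falls in RPKM as well as a fall of 6.60 on the log2 scale. It was among the abundant transcripts of 4A+ without BV, with 1754 and 1728 RPKM, against 18.7 and 15.3 in hmox1. With BV it was at 128 and 119.6 RPKM in 4A+ and at 0.41 and 0.31 in hmox1. The order of the strains was the same with and without BV while both levels were lower with it. In the complemented lines it rose with 4 h of light, from 0.09 and 0.17 to 21.0 and 20.3 RPKM in ho1C1 and from 0.33 and 0.28 to 4.15 and 4.59 in ho1C2. The adjusted p-values of these rises were 2.85e-17 and 8.55e-13.

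Cre16.g662600 and g99 resembled Cre03.g162800 in that 4A+ without BV was highest. Cre16.g662600 was at 79.8 and 90.9 RPKM in 4A+ and 5.20 and 3.73 in hmox1, a fall of 3.99 on the log2 scale. With BV, 4A+ held 4.65 and 4.52 RPKM of it, close to hmox1 without BV, and hmox1 0.52 and 0.54. g99 was at 14.3 and 15.3 RPKM in 4A+ and at 0.36 and 0.37 in hmox1, and every other library held 1.07 RPKM or less. For Cre16.g662600 the strain difference was smaller with BV than without by 2.12 on the log2 scale (SE 0.16, adjusted p = 8.75e-09), and for g99 by 2.71 (SE 0.10, adjusted p = 1.3e-12). With BV hmox1 was still the lower strain, with differences of -1.87 and -0.82 on this scale. g99 was then at 1.07 RPKM or less in both strains, where the added 1 RPKM makes differences too small.

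A different pattern was a transcript present in 4A+ in either condition and low in each library of the mutant and of the lines derived from it. Cre17.g734700 stood at 199.7 and 208 RPKM in 4A+ without BV and 171 and 193 with it, while hmox1 held 3.44 and 2.68 without BV. The other 14 libraries of hmox1 and the complemented lines lay between 0.92 and 3.06 RPKM. Cre03.g204200 was at 18.6 and 17.1 RPKM in 4A+ without BV and 12.4 and 13.9 with it, against 0 and 0.10 in hmox1, and it was at 0.26 or less in the complemented lines. Cre03.g187150 was at 12.4 and 14.2 RPKM in 4A+ and 0.38 and 0.13 in hmox1, and at most 0.48 in the complemented lines. In hmox1 with BV and in the complemented lines these 3 genes were thus far below their level in 4A+. After 4 h of light they differed from the dark by between -0.04 and 0.23 on the log2 scale in ho1C1 and ho1C2, not past the adjusted p of 0.05 in either line.

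The genes g9922 and g11587 also fell with and without BV. g9922 was at 26.2 and 27.7 RPKM in 4A+ and 2.27 and 1.98 in hmox1 without BV, and at 8 and 9.09 against 0.16 and 0.11 with it. g11587 was at 12.7 and 12.9 RPKM in 4A+ and 0.80 and 0.70 in hmox1 without BV, and at 8.18 and 7.96 against 0.14 and 0.22 with it. Their strain differences with BV, -3.07 and -2.94 on the log2(RPKM + 1) scale, were within 0.1 of those without it. With BV hmox1 was near 0, at means of 0.135 and 0.18 RPKM, where the added 1 RPKM makes the difference too small. Equal folds in RPKM with and without BV therefore do not follow.

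The falls of Cre12.g555500, Cre03.g204250 and Cre02.g081050 were of genes that stood above hmox1 in both complemented lines at 4 h. Cre12.g555500 was at 26.8 and 28.2 RPKM in 4A+ and 3.39 and 3.43 in hmox1 without BV (-2.69 on the log2 scale, SE 0.08, adjusted p = 1.92e-14). At 0.5 h of light it was at 37.3 and 38.7 RPKM in ho1C1 and 38.3 and 42.1 in ho1C2, from 3.88 and 3.48 and from 5.23 and 4.81 in the dark. At 4 h it was at 17 and 14.7 RPKM in ho1C1 and 23.1 and 21.2 in ho1C2, above hmox1 and below 4A+. With BV it did not differ between strains beyond the spread in the values as deposited (0.00, SE 0.08, adjusted p = 0.968), at 4.92 and 4.45 RPKM in 4A+ and 4.95 and 4.46 in hmox1. The 4A+ level with BV was thus near the hmox1 level without it.

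Cre03.g204250 was one of the most abundant transcripts that fell, at 3138 and 3146 RPKM in 4A+ and 1382 and 1411 in hmox1. It was between 1868 and 1956 RPKM in the 4 libraries with BV and between 2423 and 3773 in the complemented lines. Its level there was high in the dark too, between 2822 and 2918 RPKM, and fell by 0.20 and 0.16 on the log2 scale by 4 h (adjusted p = 0.000199 and 0.00182). Medians of this change over all genes tested were -0.13 in ho1C1 and -0.16 in ho1C2. The falls of Cre03.g204250 in light were thus near the shift of all genes. Its fall of 1.17 on the log2 scale became 0.98 after quantile normalization, under 2-fold. Cre02.g081050 was at 1009 and 1025 RPKM in 4A+ and 277 and 317 in hmox1, and at 0.5 h and 4 h of light between 673 and 837 in the complemented lines. At 4 h the complemented lines exceeded hmox1, with which they share the light and the lack of BV, by 1.32 and 1.48 on the log2 scale for this gene (adjusted p = 5.18e-12 and 4.97e-13). The gene was chosen for its low level in these same hmox1 libraries, so a level above them is favoured by that choice.

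Cre07.g323800 and Cre10.g452800 complete the largest falls in RPKM. Cre07.g323800 was at 2293 and 2185 RPKM in 4A+ and 793 and 621 in hmox1, and the complemented lines at 4 h held between 688 and 796, near the mutant. Cre10.g452800 was at 1297 and 1355 RPKM in 4A+ and 506 and 532 in hmox1. It rose with 4 h of light in ho1C1 from 78.8 and 78.0 to 570.3 and 542 RPKM, and in ho1C2 from 82.0 and 85.7 to 208 and 221. Both genes were also lower in hmox1 with BV, by 1.44 and 1.01 on the log2 scale.

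**Figure D3:**
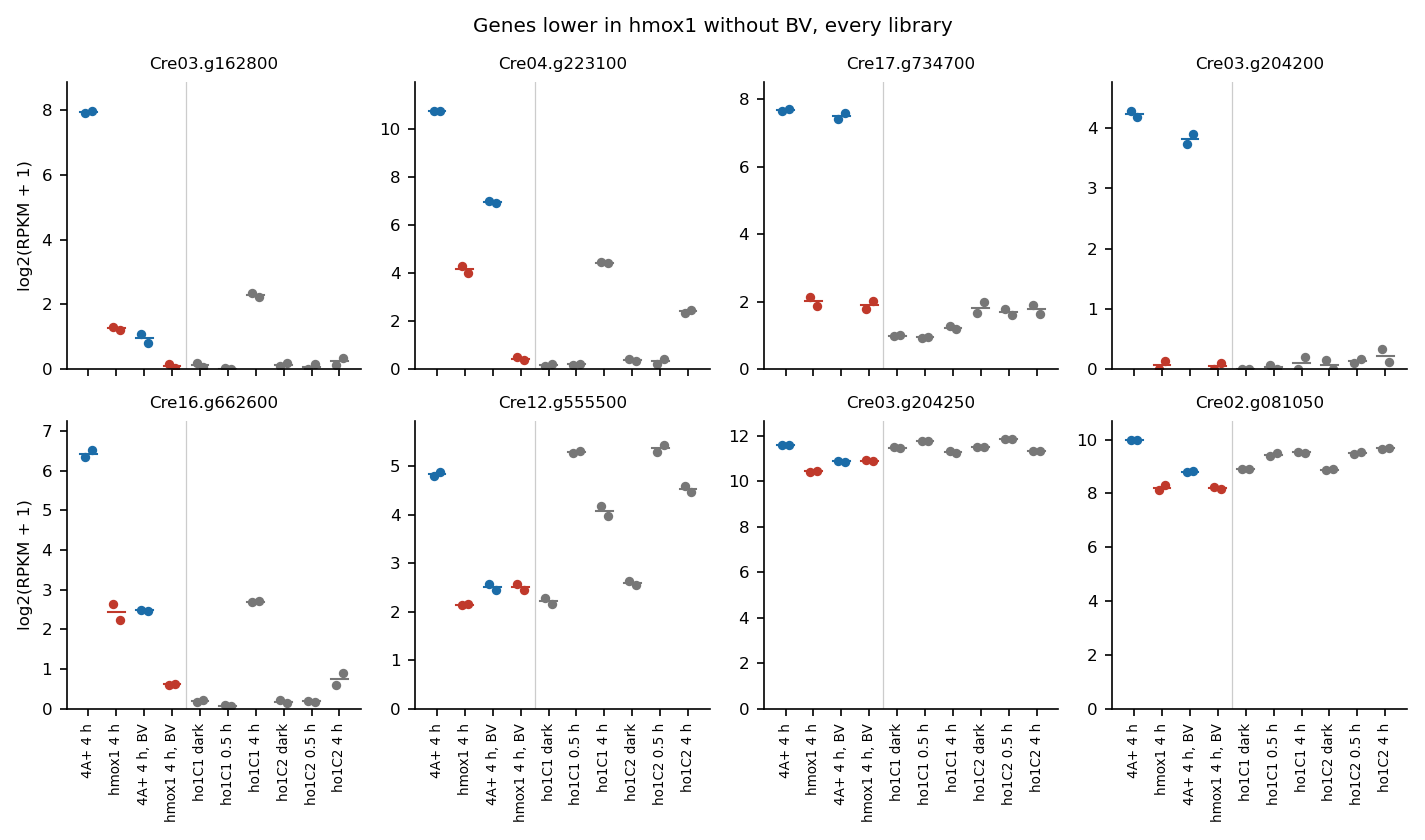
Levels of 8 genes that were lower in hmox1 than in 4A+ without BV, as log2(RPKM + 1) on the vertical axis, in every library. Points are single libraries and bars the means of 2, with 4A+ in blue, hmox1 in red and the complemented lines in grey. Cre17.g734700 and Cre03.g204200 stay low in all grey groups, while Cre12.g555500, at 3.39 and 3.43 RPKM in hmox1, is near or above the 4A+ level at 0.5 h of light.

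The rise with the largest log2 difference was also the least precise. Cre12.g546550 was at 43.6 RPKM in hmox1 replicate 1 and 13.9 in replicate 2, against 0.32 and 0.49 in 4A+ (4.20 on the log2 scale, SE 0.35, adjusted p = 1.16e-06). The strains did not overlap, although the hmox1 libraries were over 2-fold apart. Without hmox1 replicate 1 the difference was 3.41 and without replicate 2 it was 4.99. The complemented lines were highest in the dark, at 93.3 and 95.5 RPKM in ho1C1 and 51.1 and 51.6 in ho1C2, and lower at 4 h.

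The genes g17202, Cre17.g696700, Cre11.g481600 and Cre17.g696500 were low in 4A+ without BV and high everywhere else. g17202 was at 9.78 and 9.23 RPKM in 4A+ and at 95.3 and 107 in hmox1 (3.28 on the log2 scale, SE 0.11, adjusted p = 9.66e-13). In 4A+ with BV it was at 101 and 106 RPKM and in hmox1 with BV at 203 and 268, and the complemented lines lay between 70.3 and 107 in the dark and in light. Cre11.g481600 followed with 6.94 and 7.27 RPKM in 4A+ and 73.7 and 80.1 in hmox1, against 96.8 and 101 in 4A+ with BV. Cre17.g696700 was at 1.84 and 1.97 RPKM in 4A+ and 27.6 and 26.3 in hmox1, and Cre17.g696500 at 1.61 and 1.49 against 18.5 and 19.1. For these 4 genes the 4A+ libraries without BV were the lowest of all 20.

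By contrast g14626 and Cre07.g339300 were low in 4A+ with BV too. g14626 was at 0.29 RPKM in both 4A+ libraries and at 10.4 and 11.9 in hmox1, with 0.14 and 0.13 in 4A+ with BV. The complemented lines held between 13.9 and 18.9 RPKM of it in the dark and in light. Cre07.g339300 was at 0.06 and 0.03 RPKM in 4A+ and 9.54 and 7.75 in hmox1, with 0.04 and 0.06 in 4A+ with BV. In the complemented lines it fell from between 18.3 and 20.8 RPKM in the dark to between 1.80 and 2.08 at 0.5 h.

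Cre13.g566850 was high in hmox1 without BV and in the complemented lines at 0.5 h. It was at 4.58 and 4.64 RPKM in 4A+ and 44.6 and 36.7 in hmox1 (2.89 on the log2 scale, SE 0.12, adjusted p = 1.28e-12). At 0.5 h it was at 41.6 and 41.1 RPKM in ho1C1 and 36.9 and 39.5 in ho1C2, and every other library held 7.78 or less. With BV the strain difference was of the other sign, -0.36 (SE 0.12, adjusted p = 0.0179), and the test of the change between conditions gave -3.25 (SE 0.17, adjusted p = 9.92e-11). After 4 h without BV this transcript was thus in hmox1 at the level that the complemented lines had at 0.5 h.

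g18178 and Cre13.g580100 were rises at low levels in 4A+. g18178 was at 0.49 and 0 RPKM in 4A+ and 12.6 and 6.84 in hmox1 (3.08 on the log2 scale, SE 0.33). Cre13.g580100 was at 0.61 and 1.04 RPKM in 4A+ and 14.1 and 11.2 in hmox1. In both genes 4A+ with BV stood above 4A+ without it, at 0.88 and 1.53 and at 5.57 and 5.56 RPKM.

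The largest rises in RPKM were smaller in fold. Cre13.g580000 was at 484 and 458 RPKM in 4A+ and 1127 and 968 in hmox1, and rose with 4 h of light in both complemented lines, by 1.02 and 1.21 on the log2 scale. Cre13.g565800 was at 123.8 RPKM in both 4A+ libraries and 492 and 396 in hmox1. Cre03.g195400 was at 87.1 and 79.5 RPKM in 4A+ and 454 and 331 in hmox1. The fold of these 3 was between 2.22 and 4.72 in mean RPKM.

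Cre04.g214150 was at 354 and 372 RPKM in 4A+ and 743 and 785 in hmox1, and in 4A+ with BV at 955 and 966. Cre06.g284600 was at 267 and 285 RPKM in 4A+ and 545 and 591 in hmox1, and in 4A+ with BV at 667 and 656. In both, the 4A+ level with BV exceeded the hmox1 level without it. With median-ratio scaling the differences of Cre13.g580000, Cre04.g214150 and Cre06.g284600 were 0.81, 0.73 and 0.70 on the log2 scale, under 2-fold and still past the adjusted p of 0.05.

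**Figure D4:**
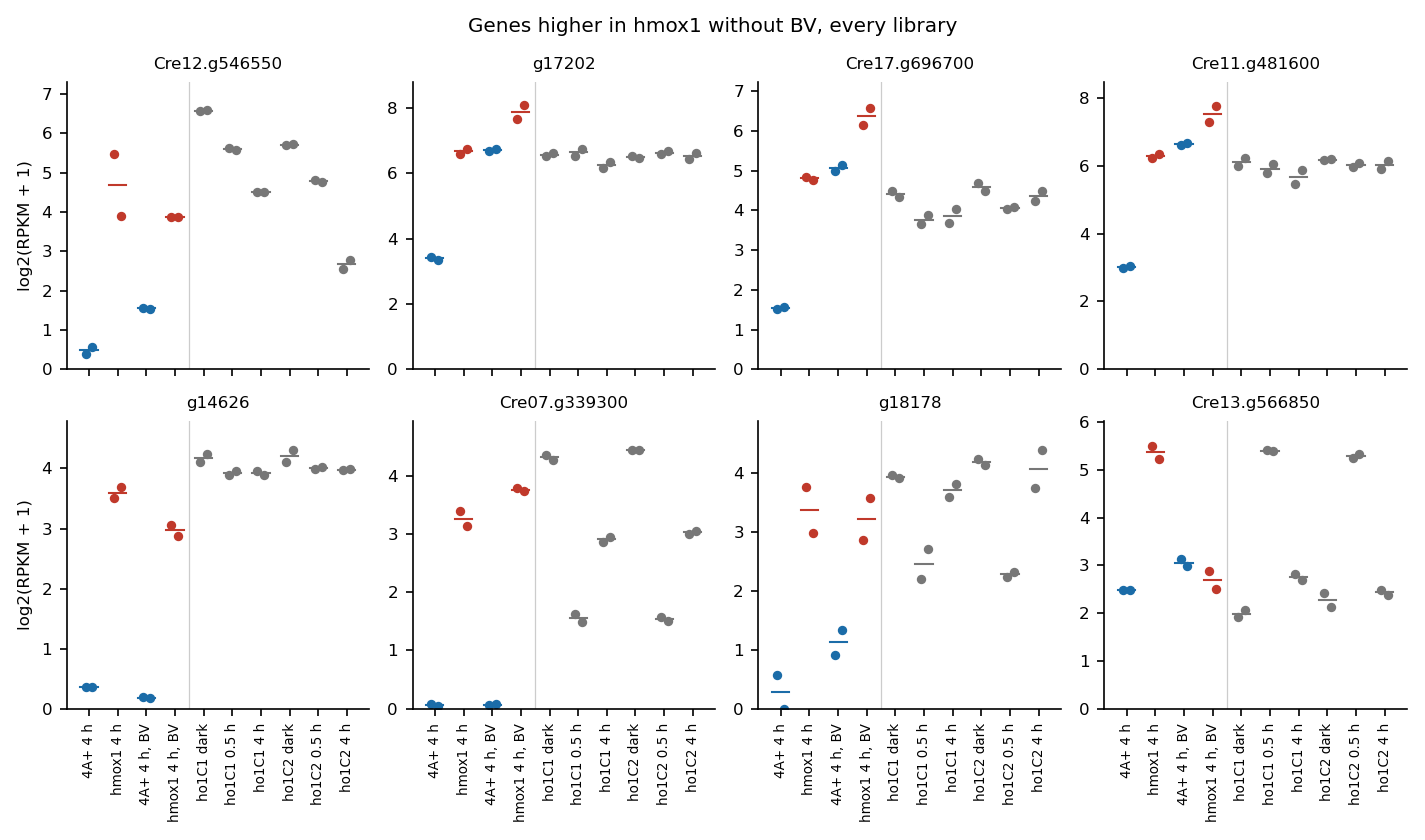
Levels of 8 genes that were higher in hmox1 than in 4A+ without BV, as log2(RPKM + 1) on the vertical axis, in every library, with points, bars and colours for single libraries, means of 2 and strains (4A+ blue, hmox1 red, complemented lines grey). The points of Cre12.g546550 in hmox1, at 43.6 and 13.9 RPKM, lie apart, and Cre13.g566850 is high in hmox1 without BV and at 0.5 h in both lines.

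Genes near 0 in one strain were nearly all near 0 in 4A+. Without BV, 29 of 13871 tested genes were under 0.1 RPKM in both 4A+ libraries and at least 1 RPKM in both hmox1 libraries. In the other direction there was 1 gene, Cre16.g685100, at 2.05 and 2.72 RPKM in 4A+ and 0.03 and 0.04 in hmox1. These limits, and the gene, were chosen after the values were seen. The counts lean as all genes did, of which 53.5% were higher in hmox1 and 11.8% lower in the values as deposited. Of all gene IDs 1980 and 2184 were at 0 in the 4A+ libraries, against 1646 and 1790 in hmox1. Of the 29 genes, Cre05.g240600 and Cre07.g339300 were under 0.1 RPKM in each of the 4 libraries of 4A+ and at 1 RPKM or more in each of the 16 libraries of hmox1 and its complemented lines. Cre05.g240600 was at 0.06 RPKM in both 4A+ libraries without BV and 3.34 and 3.12 in hmox1, and between 5.03 and 10.7 in the complemented lines.

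The strain difference was then read in the libraries with BV, which the comparison did not use. Over all genes tested, 34.9% were higher and 15% lower in hmox1 with BV, and 3.89% and 0.995% were so at least 2-fold. Of the 978 genes at least 2-fold higher without BV, 764 (78.1%) were higher with BV and 38 lower, and the median difference was 0.67. Of the 111 genes at least 2-fold lower, 74 (66.7%) were lower with BV and 11 higher, with a median of -0.70. With median-ratio scaling the background with BV was 3343 genes higher and 3748 lower, and the same lists gave 683 higher to 63 lower and 84 lower to 4 higher.

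Past 2-fold the lists overlapped in part. With BV 290 of the 978 genes were at least 2-fold higher, which is 29.7% of those without BV and 53.7% of the 540 with BV. Of the 111 lower genes 41 were at least 2-fold lower with BV, or 36.9%, and 29.7% of the 138 with BV. In 3 of the 978 genes hmox1 was at least 2-fold lower with BV, and in 0 of the 111 at least 2-fold higher.

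The test of the change between conditions uses the same libraries that chose these genes, so its counts are a description. Over all genes tested the strain difference was more positive with BV in 8.04% and more negative in 25.5%. Of the 978 higher genes 669 had a more negative difference with BV and 57 a more positive one. Of the 111 lower genes 67 had a more positive difference and 11 a more negative one. With median-ratio scaling the background was nearly even, at 2198 genes more positive and 2261 more negative, and the 978 genes had 592 more negative and 74 more positive and the 111 genes 73 more positive and 8 more negative.

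The response of these genes to light was read in the complemented lines, again without any library of the comparison. Between dark and 4 h, 26% of all genes tested rose and 43.5% fell in ho1C1, and 22.6% and 45.6% in ho1C2. Of the 111 genes lower in hmox1, 63 rose and 23 fell in ho1C1, and 58 rose and 24 fell in ho1C2, with medians of 0.35 and 0.30 on the log2 scale against -0.13 and -0.16 over all genes. The share that rose was thus 56.8% and 52.3%. Of the 978 genes higher in hmox1, 262 rose and 514 fell in ho1C1, and 157 rose and 595 fell in ho1C2, with medians of -0.28 and -0.40. Shares that rose were 26.8% and 16.1%, the first near that of all genes, and shares that fell were 52.6% and 60.8%. Median-ratio scaling moved the background at 4 h to 4793 genes up and 4616 down in ho1C1 and 4353 and 4617 in ho1C2. It moved the 111 genes to 67 up and 16 down in ho1C1 and 64 and 18 in ho1C2. The 978 genes moved to 310 up and 450 down in ho1C1 and 206 and 489 in ho1C2, with medians of -0.14 and -0.24.

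At 0.5 h, 21.7% of all genes tested rose and 59.5% fell in ho1C1, and 22.6% and 56.2% in ho1C2. Of the 978 genes 262 rose and 557 fell in ho1C1, and 248 and 557 in ho1C2, shares of 26.8% and 25.4% up and 57% down in each line. With median-ratio scaling these counts were 379 and 375 in ho1C1 and 343 and 382 in ho1C2, beside a background of 5334 up to 5380 down and 5254 to 5264. Of the 111 genes 49 rose and 38 fell in ho1C1, and 51 and 39 in ho1C2, and with median-ratio scaling 56 and 30 and 58 and 31.

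The 111 genes were then split by their difference with BV. The 41 that were at least 2-fold lower in hmox1 with BV as well had 5 up and 24 down at 0.5 h in ho1C1 and 8 up and 26 down in ho1C2, with medians of -0.42 and -0.47. The other 70 had 44 up and 14 down in ho1C1 and 43 up and 13 down in ho1C2, with medians of 0.69 and 0.61. The shares of the 70 genes that rose were 62.9% and 61.4%, beside the 21.7% and 22.6% over all genes. Of the 41 genes 12.2% and 19.5% rose and 58.5% and 63.4% fell. These falls were near the 59.5% and 56.2% over all genes, whose medians were -0.38 and -0.31. No test of the difference between the 41 and the 70 genes was made.

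Median levels of the same lists follow, with those of 4A+ and hmox1 part of how the genes were chosen. Over the 70 genes the median was 13.9 RPKM in 4A+ and 3.69 in hmox1 without BV, and 5.39 and 4.76 with it. In the complemented lines it was 5.37 in darkness, 13.7 after 0.5 h and 8.43 after 4 h for ho1C1, and 6.11, 14.4 and 10.9 for ho1C2. In both complemented lines the median of these genes was lowest in the dark and highest at 0.5 h, and at 4 h it lay below that of 4A+ and above that of hmox1. Over the 41 genes the median was 13.3 RPKM in 4A+ and 3.25 in hmox1 without BV, and 12 and 2.25 with it, and no group of the complemented lines exceeded 4.46.

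For the higher genes the levels of 4A+ and hmox1 without BV are part of how they were chosen. Those with BV are part of how they were split, so only the complemented lines lie outside both strain comparisons. Over the 290 genes also 2-fold higher with BV the median was 1.33 RPKM in 4A+ and 7.09 in hmox1 without BV, 2.54 and 9.97 with it, and between 5.92 and 9.54 in the complemented lines. Over the other 688 genes it was 3.35 RPKM in 4A+ and 9.89 in hmox1 without BV, 7.23 and 9.85 with it, and between 6.42 and 9.86 in the complemented lines. The medians over all genes tested were 4.21 in 4A+ and 5.39 in hmox1 without BV.

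**Figure D5:**
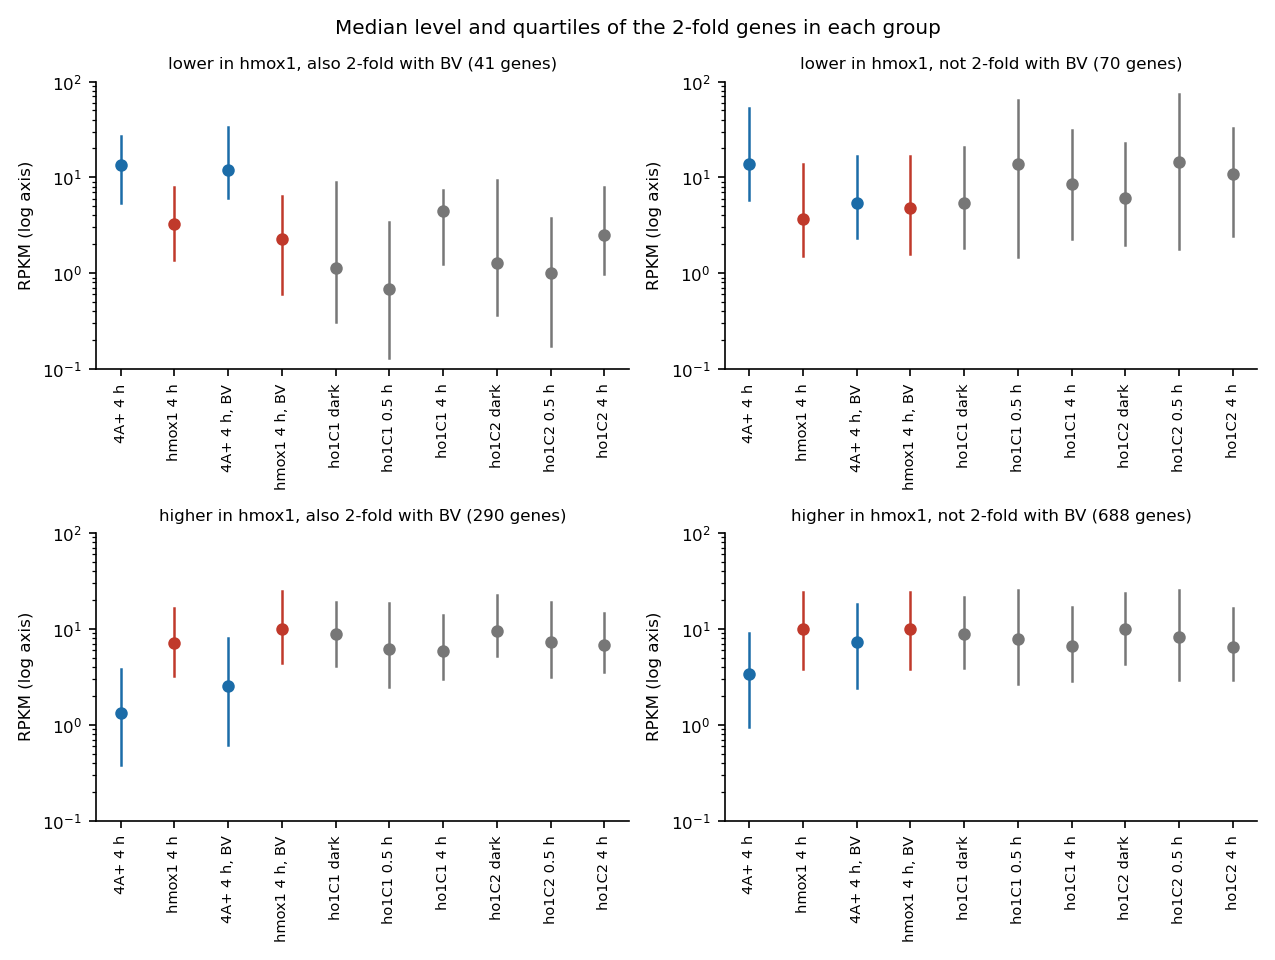
Median level (points) and quartiles (lines) in RPKM, on a log axis, of the genes at least 2-fold lower (top) and higher (bottom) in hmox1 without BV, split by whether they also differed 2-fold with BV (left) or not (right). Each point is the median over genes of the mean of 2 libraries, and colours mark 4A+ (blue), hmox1 (red) and the complemented lines (grey). The 70 genes at top right reach medians of 13.7 and 14.4 RPKM at 0.5 h in the lines, while the 41 at top left stay at 4.46 or less there.

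Some of the changed genes lay next to each other. In the gene order of the RefSeq assembly Chlamydomonas_reinhardtii_v5.5, which may not be the build behind the values, 7439 pairs of adjacent genes were both tested. Both were at least 2-fold higher in hmox1 in 65 pairs (0.874%) and both at least 2-fold lower in 9 pairs (0.121%). Of the 714 higher genes placed in the order 123 had such a neighbour, or 17.2%, and of the 83 lower genes 17, or 20.5%. Over all 10169 tested genes in the order, 10.3% lay next to a higher gene and 1.2% next to a lower one. The genes named from here on were chosen after their values were seen.

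The pair with the deepest fall was Cre06.g293950 and Cre06.g293900. Cre06.g293950 was at 691 and 724 RPKM in 4A+ and 137 and 146 in hmox1 without BV (-2.31 on the log2 scale, SE 0.05, adjusted p = 2.35e-16), and between 253 and 287 in the 4 libraries with BV. In the complemented lines it was at between 331 and 369.5 RPKM in the dark and between 1043 and 1147 at 0.5 h. Cre06.g293900 was at 11.0 and 11.8 RPKM in 4A+ and 3.29 and 3.81 in hmox1, and at 0.5 h between 74.9 and 82.4 in the complemented lines. Both genes of the pair were thus low in hmox1 without BV and highest at 0.5 h of light in the lines.

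Cre10.g433600 and Cre10.g433650 were a further pair of lower genes. Cre10.g433600 was at 370.2 and 382 RPKM in 4A+ and 107 and 121 in hmox1 without BV, and in ho1C1 at 110.4 and 107 in the dark and 226 and 236 at 0.5 h. Cre10.g433650 was at 4.77 and 5.66 RPKM in 4A+ and 0.92 and 1.01 in hmox1. Cre02.g081000, next to Cre02.g081050, was at 17.1 and 15.0 RPKM in 4A+ and 4.56 and 4.72 in hmox1.

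The single run of 3 lower neighbours was Cre01.g036950, Cre01.g037000 and Cre01.g037050. Cre01.g036950 was at 53.5 and 55.5 RPKM in 4A+ and 15.6 and 16.3 in hmox1, Cre01.g037000 at 7.11 and 7.13 against 1.47 and 1.43, and Cre01.g037050 at 8.78 and 9.46 against 2.42 and 1.59. With BV the first did not differ between strains beyond the spread in the values as deposited, with a difference of 0.03 (SE 0.05, adjusted p = 0.688). At 4 h it was at 69.3 and 64.8 RPKM in ho1C1 and 83.3 and 83.7 in ho1C2, above 4A+.

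Of the 7 runs of 3 higher neighbours, the most abundant was Cre14.g617400, Cre14.g617450 and Cre14.g617500. Cre14.g617400 was at 116 and 112 RPKM in 4A+ and 359 and 289.9 in hmox1 without BV, and at 26.5 and 26.9 against 21.3 and 25.2 with it. Cre14.g617450 was at 106 and 102 RPKM in 4A+ and 292 and 254 in hmox1. In ho1C1 the first held 2.26 and 2.12 RPKM in the dark, 83.6 and 96.8 at 0.5 h, and 38.2 and 37.4 at 4 h. At 4 h without BV hmox1 exceeded ho1C1 by 3.06 on the log2 scale (adjusted p = 7.47e-12), a difference favoured by the choice of genes high in these hmox1 libraries. Cre14.g617500 did not share this course, at 10.2 and 9.01 RPKM in the dark and 2.63 and 2.3 at 0.5 h in ho1C1.

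The neighbours Cre12.g546600 and Cre12.g546500 lay on either side of Cre12.g546550. Cre12.g546600 was at 3.27 and 3.09 RPKM in 4A+ and at 13.8 and 4.54 in hmox1, and Cre12.g546500 at 0.28 and 0.26 against 6.51 and 2.03. In all 3 genes of this run hmox1 replicate 1 was about 3 times replicate 2. In Cre10.g428966 and Cre10.g429000, of a run with Cre10.g428950, replicate 2 was the higher, at 8.88 and 11.4 RPKM and at 55.1 and 65.3. In 4A+ these 2 genes were at 0.78 and 0.86 RPKM and at 16.9 and 17.7, and at 0.5 h in ho1C1 at 15.4 and 16.5 and at 92.5 and 96.6.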

How the data were processed

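The series holds 20 libraries in 10 groups of 2, grouped by the strain, BV and light labels of each sample. The authors deposited 1 table with a column for each library, and its unit, RPKM, was inferred: no label or header states one, a gene's low values come in whole steps, and columns sum to between 718144 and 797204. The submitters' processing notes name STAR 2.3.0 and HTSeq without their roles. The sources used here do not give the genome build or the annotation. Because RPKM fixes the total, a shift of abundant genes moves all others in a library.

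The planned test for read counts was replaced by its written substitute for normalized values, limma (version 3.58.1, under R 4.3.3), fitted to log2(RPKM + 1) with robust moderation along a mean-variance trend. All 20 libraries entered 1 fit with a mean for each group and 10 residual degrees of freedom. Genes under 1 RPKM in all but 1 library or in all, 3866 in number, were left out. P-values were Benjamini-Hochberg adjusted over the 13871 genes tested in each comparison, with a threshold of 0.05. The added 1 RPKM makes folds of weakly expressed genes too small. Simulated data with planted changes served to check that the test recovers these and estimates their size. No limit was set on false calls and no shift in scaling was simulated, so this does not vouch for the counts of genes called.

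Named genes had an adjusted p under 0.05, at least a 2-fold difference, no overlap between strains and at least 5 RPKM on average in the higher strain, conditions met by 641 higher (4.62%) and 90 lower genes (0.649%). The 10 largest rises and falls in log2 and the 5 largest in RPKM were taken, 29 genes in all. The comparison, lists and alternatives were chosen with earlier results of these data known.

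Of 17737 IDs 11713 (66%) had an entry in RefSeq's genes for assembly Chlamydomonas_reinhardtii_v5.5, which gives 0 symbols apart from locus tags. Planned gene classes by name or protein signature and promoter motifs are not analysed here, and checks of gene length or GC content are void because fewer than 80% of IDs matched. The table gave the order of genes alone. Relative depth came from 344 genes with low values. Alternatives covered the pseudocount, the filter, scaling, the libraries in the fit, a spread for each group, moderation, a replicate block and each library left out.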

Additional observations from a re-analysis of the deposited data

Results flagged for a closer look

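For 22 of the 29 named genes the strain difference itself differed between cultures with and without BV, at a limma adjusted p under 0.05 for the difference of the 2 strain differences, given here on the log2 scale as with BV minus without. These genes were named from the libraries without BV, so a smaller difference with BV is favoured by that choice.

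Among genes lower in hmox1 without BV the change was 5.82 for Cre03.g162800, 0.40 for Cre03.g204200, 2.12 for Cre16.g662600, 2.71 for g99 and 2.70 for Cre12.g555500. It was 1.19 for Cre03.g204250, 0.34 for Cre10.g452800 and 1.17 for Cre02.g081050. Each of these is a smaller fall with BV on the log2(RPKM + 1) scale. In Cre03.g204200 hmox1 was near 0 without and with BV, at means of 0.05 and 0.04 RPKM, so its change follows the level in 4A+. For Cre12.g555500 and Cre03.g204250 the strains with BV differed by 0.00 and 0.02 in the values as deposited, short of the threshold. Median-ratio factors were 0.883 and 0.903 in 4A+ with BV and 1.01 and 0.994 in hmox1 with BV. Dividing by these factors would lower both differences.

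Among genes higher in hmox1 without BV the change was -1.89 for Cre12.g546550, -2.11 for g17202, -1.97 for Cre17.g696700, -2.38 for Cre11.g481600 and -0.44 for g14626. It was -2.12 for Cre17.g696500, -1.48 for Cre13.g580100, -3.25 for Cre13.g566850 and -0.45 for Cre13.g580000. It was -1.66 for Cre04.g214150, -1.05 for Cre13.g565800, -1.58 for Cre03.g195400 and -1.07 for Cre06.g284600. On the log2(RPKM + 1) scale Cre07.g339300 alone among these 22 genes had a larger strain difference with BV, by 0.49. In g14626 4A+ was near 0 without and with BV, at means of 0.29 and 0.135 RPKM, against 11.1 and 6.87 in hmox1. Its change on this scale thus follows the level in hmox1 and need not be a smaller fold in RPKM. In Cre13.g566850 and Cre04.g214150 the strain difference with BV was past the threshold in the other direction, at -0.36 and -0.58.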

How the results depend on the processing

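Scaling and the pseudocount moved counts by over 1.5 times, and so did the fit with the 4 libraries alone for the number of lower genes. Higher genes numbered 7418 as deposited, 4230 with median-ratio scaling and 3594 with quantile normalization, and lower genes 1632, 4187 and 4193. Past 2-fold these were 526 and 424 higher and 240 and 214 lower, and the median of all genes moved from 0.24 to 0.00 and -0.04. A pseudocount of 0.1 gave 2272 genes higher and 185 lower past 2-fold, and one of 5 gave 289 and 49, with a median of 0.12. Of the 978 and 111 genes past 2-fold without BV, a pseudocount of 5 left 115 higher and 19 lower past 2-fold with BV, against 290 and 41. With the 4 libraries alone in the fit 5887 genes were higher and 1048 lower, and with a spread for each group 5808 and 1131. Leaving out in turn each of the 4 libraries compared gave 6307 to 7190 higher and 1230 to 1791 lower, 917 to 1134 and 111 to 121 past 2-fold, and medians of 0.23 to 0.26. The replicate block gave 7567 higher and 1689 lower, with 978 and 111 past 2-fold. Same-numbered libraries correlated at 0.14 in their deviations, over 2 pairs, which does not show that the numbers pair the samples. The 406 values of named genes under these alternatives kept their direction, and 7 were under 2-fold. These genes were chosen for large differences in the same libraries, so a kept direction was largely set by that choice. The 96 counts of light responses stayed within 1.5 times. Alternatives for gene classes and promoters were not run. Absolute depth is unknown, which limits what values near 0 can show.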
